A study of Homo sapiens and Mus musculus with 20 samples.

Results

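Of the 22858 peaks of full-length Satb1 in MCF10A cells whose sequence could be read, 762 (3.33%) held no exact match to the consensus of the study in 400 bp of hg19 centred on the peak midpoint. The consensus has 7 bp and is written YTAWTAR, where Y stands for a pyrimidine, W for A or T, and R for a purine. It reads the same on both strands. The other 22096 peaks, called here peaks with the consensus, were the comparison group. A further 19 peaks of the deposited list lay in a masked stretch of the genome copy and were left out. Satb1 was fused to eGFP at its C terminus and was expressed from a cumate-switch lentiviral vector, and chromatin was precipitated with an antibody to GFP. MCF10A, a line of human mammary epithelium, makes no Satb1 of its own. The same peaks were looked up in 4 other ChIP-seq lists: dHD (Satb1 lacking the homeodomain), N-C1 (the N-terminal domain with CUT1), and cells expressing Satb1 that had received camptothecin, an inhibitor of topoisomerase I, or ICRF-193, an inhibitor of topoisomerase II, for 2 h before fixation. They were also looked up in ATAC-seq lists of native MCF10A cells and of MCF10A cells expressing Satb1. The cell lines of the constructs were transduced populations sorted for a like fluorescence. There was 1 list per condition, so p-values are not given, for lack of any replicate error to compare a difference with.

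Satb1 is a nuclear protein best known from thymocytes, where it organizes chromatin around A/T-rich DNA. It holds an N-terminal oligomerization domain, the DNA-binding domains CUT1 and CUT2, and a homeodomain, a fold that in many proteins reads TAAT-like sequences. A/T-rich stretches that unwind easily under torsion, called base-unpairing regions, are its classic targets, and topoisomerases relieve that torsion. ATAC-seq marks chromatin that a transposase can enter.

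The 7 lists held 22877 (full length), 50537 (dHD), 62856 (N-C1), 24475 (camptothecin), 37350 (ICRF-193), 175989 (ATAC-seq, native) and 206170 (ATAC-seq, Satb1) peaks. The read depth of each single list is not stated, although the study gives a range over its ChIP-seq libraries, and a site missing from a list may still be bound below its threshold. Fold enrichment is the authors' ratio of the read pileup to the local background, and it is set side by side between lists without forming a ratio. All 10 mammary epithelial marker genes looked up, among them KRT5, KRT14 and TP63, had an ATAC-seq peak at a promoter in both lists. Of 8 lymphocyte genes, 3 had one in native cells and 4 in cells expressing Satb1, and PTPRC, CD3E and CD3D had none. Shares carry exact 95% Clopper-Pearson intervals and differences carry 95% intervals over peaks. These cover counting error only, and neighbouring or repeated peaks are not independent.

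The sequences below are 80 bp of hg19, plus strand, centred on the summit of peaks named by a rule of strength, A/T content, position or number of matches. They show how near-matches were arrayed in these named peaks, which are not a typical sample of the 762. Tandem repeats, described below, made up 63 of the 762 (8.27%). Capitals mark every 7-mer that differs from the consensus at exactly 1 base, called a single-mismatch match, and overlapping matches run together.
chr13:87726700-87726779, strongest peak, nearest gene SLITRK5: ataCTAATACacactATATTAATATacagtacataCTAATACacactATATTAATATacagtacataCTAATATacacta
chr11:125935002-125935081, 3rd strongest, nearest gene CDON: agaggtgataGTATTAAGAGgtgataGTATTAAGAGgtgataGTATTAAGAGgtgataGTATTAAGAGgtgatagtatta
chr1:239896067-239896146, 4th strongest, intron of CHRM3: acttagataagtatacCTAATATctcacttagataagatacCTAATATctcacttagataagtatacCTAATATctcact
chr16:23264980-23265059, highest A/T content, nearest gene SCNN1B: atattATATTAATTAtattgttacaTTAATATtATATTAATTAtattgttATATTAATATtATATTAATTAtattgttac
chr9:2722204-2722283, most single-mismatch matches, intron of KCNV2: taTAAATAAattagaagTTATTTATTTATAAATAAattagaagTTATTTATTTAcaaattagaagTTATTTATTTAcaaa
chr3:40125797-40125876, no single-mismatch match, intron of MYRIP: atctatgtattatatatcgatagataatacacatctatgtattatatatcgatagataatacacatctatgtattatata
chr2:44512017-44512096, promoter of SLC3A1: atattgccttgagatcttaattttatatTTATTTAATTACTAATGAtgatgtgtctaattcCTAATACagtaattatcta
chr7:37827532-37827611, widest peak and member of a sequence family described later, intron of ENSG00000290149: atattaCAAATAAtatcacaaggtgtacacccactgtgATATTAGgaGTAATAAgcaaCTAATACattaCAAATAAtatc

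The first 6 of these windows repeat a unit within the 80 bp, whereas the SLC3A1 promoter holds scattered single-mismatch matches. The family member lies between, since CAAATAA and the bases beside it recur near its start and at its end, with other matches scattered between. The strongest peak repeats CTAATAC and ATATTAA, each of which misses the consensus at an outer base, the first or the last of the 7. The CDON window repeats GTATTAA, again with an outer-base miss, and each copy is overlapped by TTAAGAG, which misses next to the centre. The CHRM3 window repeats CTAATAT, with an outer-base miss. The KCNV2 window is made of TAAATAA and TTATTTA, which miss at the second or the sixth base. The MYRIP window is 80% A/T and holds neither an exact nor a single-mismatch match.

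The absence of the consensus depended on how wide a window was read. Exact matches are common in A/T-rich DNA, and 29.8% of 400-bp windows lying 2000 bp from these peaks held one. The nearest exact match lay at a median of 524 bp from the midpoint. It was within 300 bp for 184 peaks, within 500 bp for 355 and within 1000 bp for 577, and it lay beyond 2000 bp for 48. The farthest was 14040 bp away. The deposited interval itself held a match in 71 peaks, and 400 bp centred on the summit held a match in 58, which made 90 peaks with either. Just outside the window, a peak in an intron of FOXN3 (chr14:89658228-89658715), a forkhead transcription factor, had its nearest match at 197 bp and a fold enrichment of 6.78. Just inside, at 196 bp, a peak near BUB1 (chr2:111388210-111388470), a spindle checkpoint kinase, had 5.68. Strength did not follow this distance: median fold enrichment was 6.64 with the match under 300 bp away, 6.64 at 300 to 500 bp, 6.91 at 500 to 1000 bp and 6.73 beyond. The 5-bp core TAATA, or TATTA on the other strand, was present in the 400 bp of 716 of the 762 peaks (94.0%), against 70.5% of windows 2000 bp away. In peaks with the consensus it was 100% by definition, since the consensus contains this core.

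In strength, peaks without the consensus lay slightly below peaks with it and slightly above peaks with a single exact match. Their fold enrichment had a median of 6.78 (quartiles 5.54 and 10.3, range 2.15 to 51.4), against 7.33 (quartiles 5.82 and 10.7) for peaks with the consensus. The mean log2 fold enrichment differed by -0.09 (95% interval -0.15 to -0.03). Against the 3272 peaks with exactly 1 match, whose median was 6.50, the difference was 0.12 (0.06 to 0.18). Peaks without the consensus made up 4.26% of the weakest quartile of the list and 3.21%, 2.75% and 3.04% of the following quartiles. The difference from peaks with the consensus was -0.03 with an interval that included 0 once peaks close to assembly gaps were left out. It was -0.15 (-0.20 to -0.09) without tandem repeats. When a match anywhere in the deposited interval also counted, it was -0.17 (-0.23 to -0.11).

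The peaks without the consensus had a larger mean width and a similar median. Their width had a median of 310.5 bp, against 314 bp, and a mean of 412 bp, against 355 bp. The mean log2 width differed by 0.10 (0.05 to 0.14). Among the peaks that did not consist of tandem repeats it differed by 0.02 (-0.02 to 0.07). The widest, of 4388 bp, against 5475 bp for the widest peak with the consensus, was the family member on chromosome 7 shown above, and its fold enrichment was 39.0. Its deposited interval held an exact match, 1081 bp from the midpoint. Another wide peak, of 2367 bp, lay near CBFA2T3 (chr16:89094972-89097338), a transcriptional corepressor, with a fold enrichment of 35.5 and a 28-bp repeat unit. If a match anywhere in the deposited interval also counted, 691 peaks remained and the width difference turned to -0.04.

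The A/T content of these peaks stood above that of their surroundings but below that of peaks with the consensus. In 200 bp at the midpoint they held 70.7% A/T (SD 6.85 across peaks, n = 762) and in their own flanks, 1000 to 2000 bp away, 61.8% (SD 5.34). The gain over the flanks was 8.90 percentage points (8.38 to 9.41), against 9.95 (9.87 to 10.0) at peaks with the consensus. A/T content exceeded that of the flanks at 692 of 762 peaks, beside 94.8% of all full-length peaks. Peaks with the consensus held 72.4% (SD 5.42), so the difference was -1.69 percentage points (-2.19 to -1.20), and -0.974 without the sequence family described below. The spread was wider on both sides. Peaks without the consensus made up 11.4% of full-length peaks under 60% A/T, 6.83% at 60 to 65%, 4.03% at 65 to 70%, 2.63% at 70 to 75%, 2.19% at 75 to 80% and 4.24% from 80% up. The consensus is itself rich in A/T, so a rule that leaves it out favours windows of lower A/T content. Part of the differences from peaks with the consensus, and of the fall in these shares, was thus set by the selection. How large that part was, was not tested.

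At the A/T-rich end, a peak near SCNN1B (chr16:23264845-23265232), a subunit of the epithelial sodium channel, held 91.0% A/T. A peak near SPRY4 (chr5:141730717-141731978), an inhibitor of receptor tyrosine kinase signalling, held 90.5%. Their fold enrichments were 6.19 and 22.2. At the other end, a peak in an intron of the kinase gene JAK1 (chr1:65328621-65329212) held 49.5%, with a fold enrichment of 5.86 and a 33-bp repeat unit. Its deposited interval held an exact match, 280 bp from the midpoint. The lowest value, 49.0%, belonged to a strong peak near FSCB (chr14:44457479-44458725), with a fold enrichment of 34.3. There the value at the midpoint did not describe the summit. The 80 bp at the summit held 90.0% A/T, 7 single-mismatch matches in capitals and 2 exact matches, left in lower case but for 1 base shared with a single-mismatch match.
chr14:44458322-44458401, nearest gene FSCB: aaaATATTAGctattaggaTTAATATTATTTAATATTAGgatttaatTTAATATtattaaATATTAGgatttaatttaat

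Single-mismatch matches were denser at these peaks than at peaks with the consensus, and far denser than in sequence nearby. They numbered 13.8 in 400 bp (SD 5.71 across peaks, n = 762), against 11.2 (SD 4.38) at peaks with the consensus, a difference of 2.55 (2.14 to 2.96). An exact match is not counted as a single-mismatch match, so the fairer reference has no exact match either. In 31403 windows of 400 bp lying 2000 bp from full-length peaks and holding no exact match, the mean was 5.34. In the 1069 such windows beside the peaks without the consensus it was 5.21. A single peak, the one in MYRIP, had 0, and 8 had fewer than 5.

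The excess depended on which base was missed. Matches missing an outer base numbered 4.84 per peak without the consensus, against 3.13 per peak with it and 0.778 per motif-free window. Those missing the second or sixth base numbered 5.43, against 4.27 and 1.82. Those missing the third or the fifth base, beside the centre and called inner-base matches here, numbered 2.97, against 3.38 and 2.49. Matches missing the central base were rare, at 0.505, 0.425 and 0.247. Outer-base matches were thus 35.2% of all single-mismatch matches at these peaks and 14.6% in motif-free windows, and inner-base matches were 21.6% and 46.7%.

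Since A/T-rich sequence holds more near-matches of any kind, the comparison was repeated within classes of A/T content of the 400 bp. From 65 to 70% A/T, 243 peaks held 4.12 outer-base matches, against 1.13 in 7077 motif-free windows. The difference in outer-base matches ranged from 2.98 to 5.39 over the 5 classes from 55 to 80% A/T. The difference in inner-base matches ranged from -0.31 to -1.49 over these classes, with an interval that included 0 at 60 to 65%. From 80 to 85% A/T the outer-base difference was 10.8, over 20 peaks and 17 windows.

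**Figure D1:**
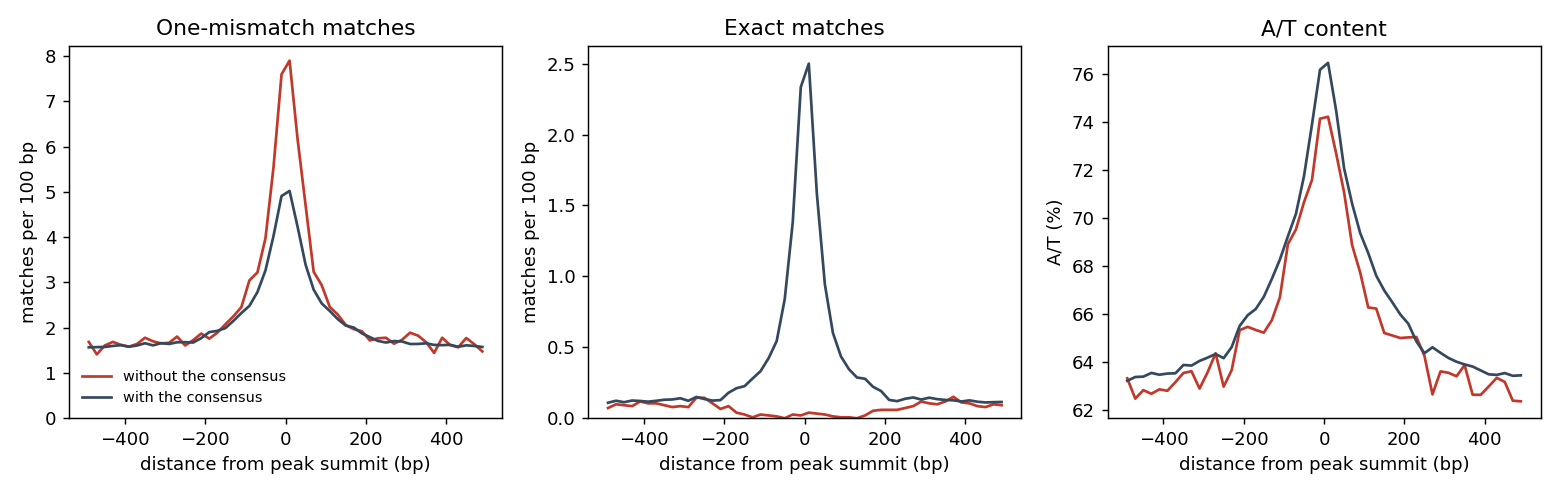
Mean density of single-mismatch matches (left, per 100 bp), of exact matches (middle, per 100 bp) and mean A/T content (right, %, axis not from 0) in 20-bp bins by distance from the summit in bp, for 762 peaks without the consensus (red) and 22096 with it (dark blue). Within 60 bp of the summit the red peaks held 5.98 single-mismatch matches per 100 bp and the dark blue peaks 4.14, while at 400 to 500 bp both were near 1.6.

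These matches gathered at the summit. The rule centred its window on the midpoint, but the summit could lie inside that window. Peaks without the consensus held 5.98 single-mismatch matches per 100 bp within 60 bp of the summit, 2.11 at 100 to 200 bp and 1.61 at 400 to 500 bp. Peaks with the consensus held 4.14, 2.08 and 1.59. Exact matches within 60 bp of the summit numbered 0.024 per 100 bp at peaks without the consensus and 1.60 at peaks with it. An exact match is not counted as a single-mismatch match, so part of the excess over peaks with the consensus was set by the selection. For outer-base matches alone the densities were 2.42, 0.593 and 0.339 at peaks without the consensus. A/T content fell from 72.4% within 60 bp to 62.8% at 400 to 500 bp, against 74.1% and 63.4% at peaks with the consensus.

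A few 7-mers made up much of the near-match content. The most frequent, ATATTAA, or its complement TTAATAT, occurred 1.38 times per peak, against 0.163 times per motif-free window. The next, ATATTAG or its complement CTAATAT, occurred 1.31 times against 0.0957, a ratio of 13.7, and was present in 52.8% of the peaks. CTAATAC, or GTATTAG on the other strand, occurred 0.551 times against 0.0429, a ratio of 12.8. TAATTAA, or TTAATTA, which holds the TAATTA core read by many homeodomain proteins, occurred 1.19 times against 0.140. By contrast the inner-base match TTAAAAA, or TTTTTAA, occurred 0.482 times against 0.432, a ratio of 1.12.

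**Figure D2:**
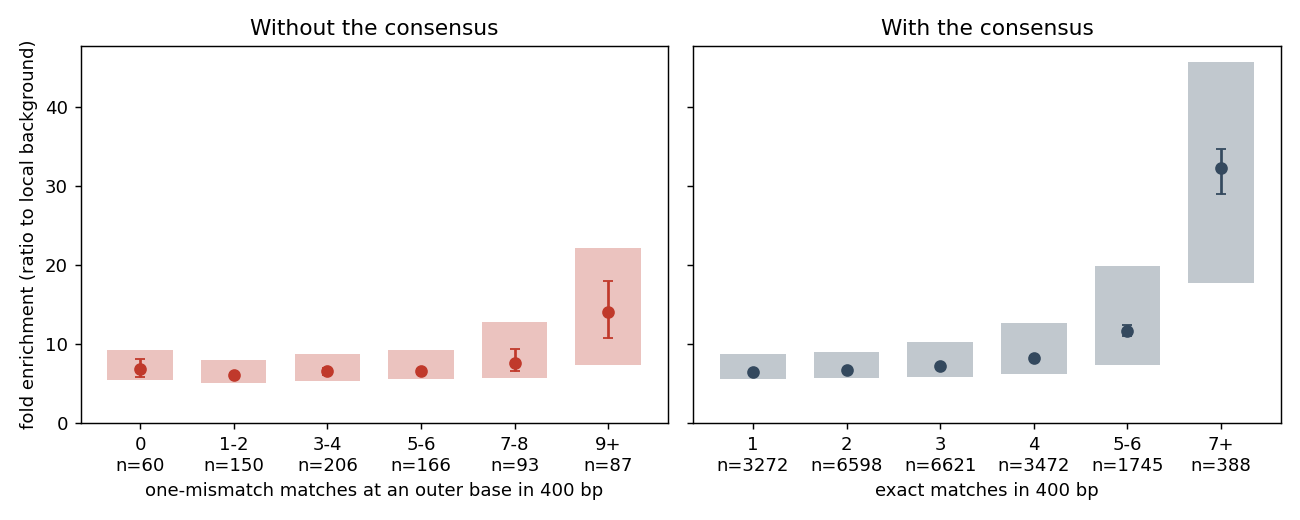
Fold enrichment (ratio to the local background) by the number of outer-base single-mismatch matches in peaks without the consensus (left) and by the number of exact matches in peaks with it (right). Points are medians with 95% intervals, shaded bars span the quartiles, and n is the number of peaks. On the left the median stays between 6.07 and 7.60 up to 8 matches and is 14.04 from 9 matches up, and on the right it runs from 6.50 to 32.3.

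Peaks without the consensus that held many near-matches were the stronger ones. The median fold enrichment was 6.87 for the 60 peaks with no outer-base match, 6.64 for the 166 with 5 or 6, 7.60 for the 93 with 7 or 8, and 14.04 (95% interval 10.8 to 18.0) for the 87 with 9 or more. Without tandem repeats the last class had 53 peaks and a median of 10.8 (8.42 to 15.9). In peaks with the consensus, sorted by exact matches, the median ran from 6.50 with 1 match to 11.7 with 5 or 6 and 32.3 with 7 or more. Across the 762 peaks, which share their genome and library, the Spearman correlation of fold enrichment was 0.31 with the number of single-mismatch matches, 0.26 with outer-base matches and 0.23 with A/T content. It was -0.08 with inner-base matches and 0.02 with the distance to the nearest exact match.

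The strongest peaks illustrate this range. The first, in the intergenic region nearest SLITRK5 (chr13:87726237-87727437), a neuronal adhesion gene, had a fold enrichment of 51.4 with 33 outer-base matches in 400 bp and a 32-bp repeat unit. It was in neither construct list, whereas its fold enrichment was 55.3 in the camptothecin list and 64.5 in the ICRF-193 list. The second lay far from any gene, the nearest being SLC10A2 (chr13:104890375-104891454), the ileal bile acid transporter. Its fold enrichment was 50.8, with 54.5 in dHD, 53.6 in N-C1, 75 after camptothecin and 85.4 after ICRF-193.

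The peak 1812 bp from CDON (chr11:125934591-125935420), a co-receptor of hedgehog signalling, had 49.1, with 83.8 in dHD and 71.0 in N-C1. The peak in an intron of CHRM3 (chr1:239895171-239896514), a muscarinic acetylcholine receptor, had 48.0, with 79.7 in dHD and 62.6 in N-C1. The fifth, on chromosome 8 near the hyaluronan synthase gene HAS2, had 46.3, with 6.61 in dHD, 9.83 in N-C1, 55.3 after camptothecin and 69.2 after ICRF-193. The deposited intervals of the CHRM3 and HAS2 peaks held an exact match outside the 400 bp, at 651 and 391 bp from the midpoint. Those of the peaks near SLITRK5, SLC10A2 and CDON held none. All 5 had repeat units of 16 to 35 bp and none overlapped a native ATAC-seq peak, while those near CDON and HAS2 overlapped weak ATAC-seq peaks of cells expressing Satb1, with fold enrichments of 2.89 and 2.85. Thus peaks of nearly equal strength with full-length Satb1 ranged from absent to 83.8 in the construct lists.

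**Figure D3:**
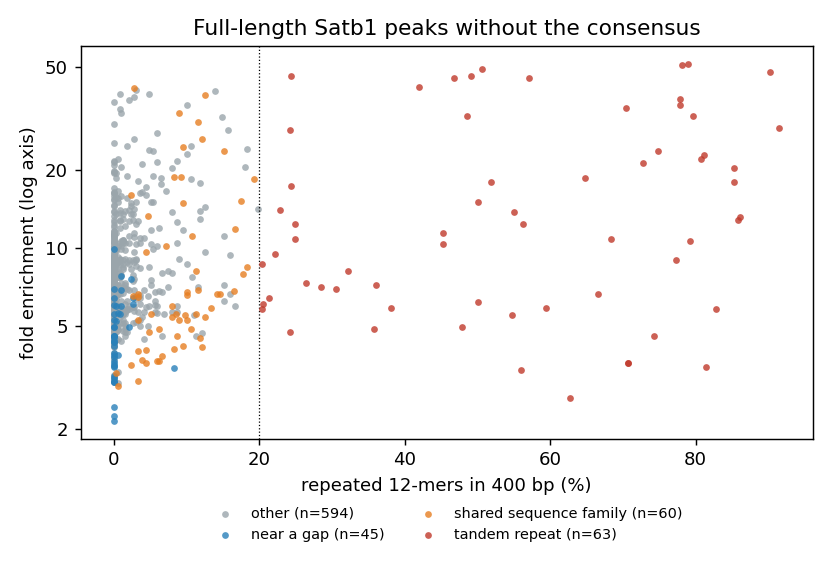
Fold enrichment (log axis) against the share of 12-mers in 400 bp that repeat an earlier 12-mer of the same window (%), for each of the 762 peaks without the consensus. Each peak is drawn once, as a tandem repeat first (63, right of the dotted line at 20%), then as a member of the shared sequence family (60 drawn of 64), as near a gap (45 drawn of 60) or as none of these (594). Tandem repeats span fold enrichments from 2.63 to 51.4.

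Internal repetition was more frequent than at peaks with the consensus. At least 20% of the 12-mers in the 400 bp repeated an earlier 12-mer of the window, a measure called tandem repeat here, in 63 of the 762 peaks (8.27%, 6.41 to 10.5), beside 0.906% of all full-length peaks. Among peaks with the consensus the share was 0.652%, a difference of 7.62 percentage points (5.86 to 9.79). Repetition was read in the same 400 bp that the rule searched. A window built of copies of a short unit holds fewer distinct 7-mers, so the rule itself may favour such windows. The size of that part was not tested, and windows nearby were not scored for repeats. The repeat unit had a median of 32 bp (range 6 to 134 bp). These 63 peaks had a median fold enrichment of 12.4, against 6.64 for the other 699, and a median width of 731 bp, against 306 bp. They held 9.94 outer-base matches on average, against 4.38. Among the 60 peaks without the consensus that reached a fold enrichment of 20, a level reached by 7.33% of all full-length peaks, 21 were tandem repeats. The peak in KCNV2 (chr9:2721970-2722475), a potassium channel subunit, showed that many near-matches and high A/T content could go with a modest value: it held 69 single-mismatch matches, none at an outer base, and its fold enrichment was 5.82. The peak in MYRIP (chr3:40125679-40126270), a Rab-binding motor linker, held 0 and had 8.97.

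A second group was made of peaks that shared sequence with each other at distant places. Linking the peaks without the consensus by at least 15 shared 14-mers in their 400 bp gave a largest family of 64 (8.40%, 6.53 to 10.6) on 16 chromosomes. Peaks with the consensus were added only where such a link led directly to a peak of this family, which reached 69. Linked peaks of both kinds were 0.582% of all full-length peaks. Since the family was built from peaks without the consensus, its larger share among them was set by that choice and is not a finding. The word CTGTGATATTAGGA occurred in 31 of the 64 and the word TATTACTCCTAATA in 30, and the former holds the outer-base match ATATTAG. The same words also occurred in 25 and 50 peaks with the consensus, so they were not particular to peaks without it. The family had a mean A/T content of 62.7% (SD 4.75), a median width of 561 bp and a median fold enrichment of 6.50 (range 2.93 to 41.4). The strongest lay near DUSP4, a MAP kinase phosphatase gene. All 64 were in the dHD list and 63 in the N-C1 list, as were 68 and 67 of the 69 linked peaks with the consensus. Its most crowded place was SLC25A48, a mitochondrial carrier gene, whose introns held 7 peaks without the consensus between chr5:135089933-135091865 and chr5:135138392-135139564. Their fold enrichments ran from 3.68 to 23.8 with full-length Satb1, from 8.29 to 61.1 in dHD and from 4.25 to 33.8 in N-C1.

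Another group lay within 1 Mb of an assembly gap of at least 1 Mb, as at centromeres. It held 60 peaks without the consensus (7.87%, 6.06 to 10.0), beside 2.23% of all full-length peaks, and they were weak, with a median fold enrichment of 4.38, against 7.01 for the other 702. Of these, 15 belonged to the sequence family and 0 were tandem repeats. A stretch of chromosome 20 with DEFB115 as its nearest gene (chr20:29600888-29605046 and chr20:29616099-29636351) held 8, with fold enrichments from 2.25 to 9.91. Repeats, family and gaps together took in 168 of the 762 peaks (22.0%) and 2.96% of peaks with the consensus, and 594 peaks were in none. The part of this contrast that comes from the family follows from how the family was built, and the rule itself may favour the part from repeats. Peaks without the consensus more often had a close neighbour: 258 (33.9%) had another full-length peak within 10 kb, beside 23.3% of all full-length peaks. The median distance to the nearest peak was 629 bp in the family and 1593 bp near gaps. Outside the family it was 27851 bp (24765 to 31425), an interval that includes the 30792 bp of peaks with the consensus. How reads that align to several places were handled is not stated, and its part in these 3 groups was not tested.

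Like all full-length peaks, those without the consensus recurred almost always in another ChIP-seq list. The dHD list held 668 (87.7%, 85.1 to 89.9), beside 88.6% of all full-length peaks, and the difference from peaks with the consensus was -0.972 percentage points (-3.53 to 1.22). The N-C1 list held 700 (91.9%, 89.7 to 93.7), beside 95.2%, a difference of -3.45 (-5.62 to -1.69). All 4 other lists held 491 (64.4%), beside 70.8%. A single peak (0.131%) was in none of them, beside 0.114% of all full-length peaks, a weak one on chr16:32147691-32147918 with a fold enrichment of 4.37. When a reciprocal overlap of 50% was required, the differences were larger, at -12.3 for dHD and -7.50 for N-C1.

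The N-C1 difference was seen in strong peaks. In the strongest quartile of the full-length list, N-C1 held 160 of 174 peaks without the consensus (92.0%) and 98.3% of peaks with it, a difference of -6.37 (-11.4 to -3.15). In the weakest quartile the shares were 91.2% and 91.8%, a difference of -0.637 (-4.77 to 2.33). Without tandem repeats the overall N-C1 difference was -1.72 (-3.78 to -0.12), without repeats and gap-side peaks it was -1.39 (-3.52 to 0.22), which includes 0, and without the sequence family as well it was -1.84 (-4.12 to -0.12).

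**Figure D4:**
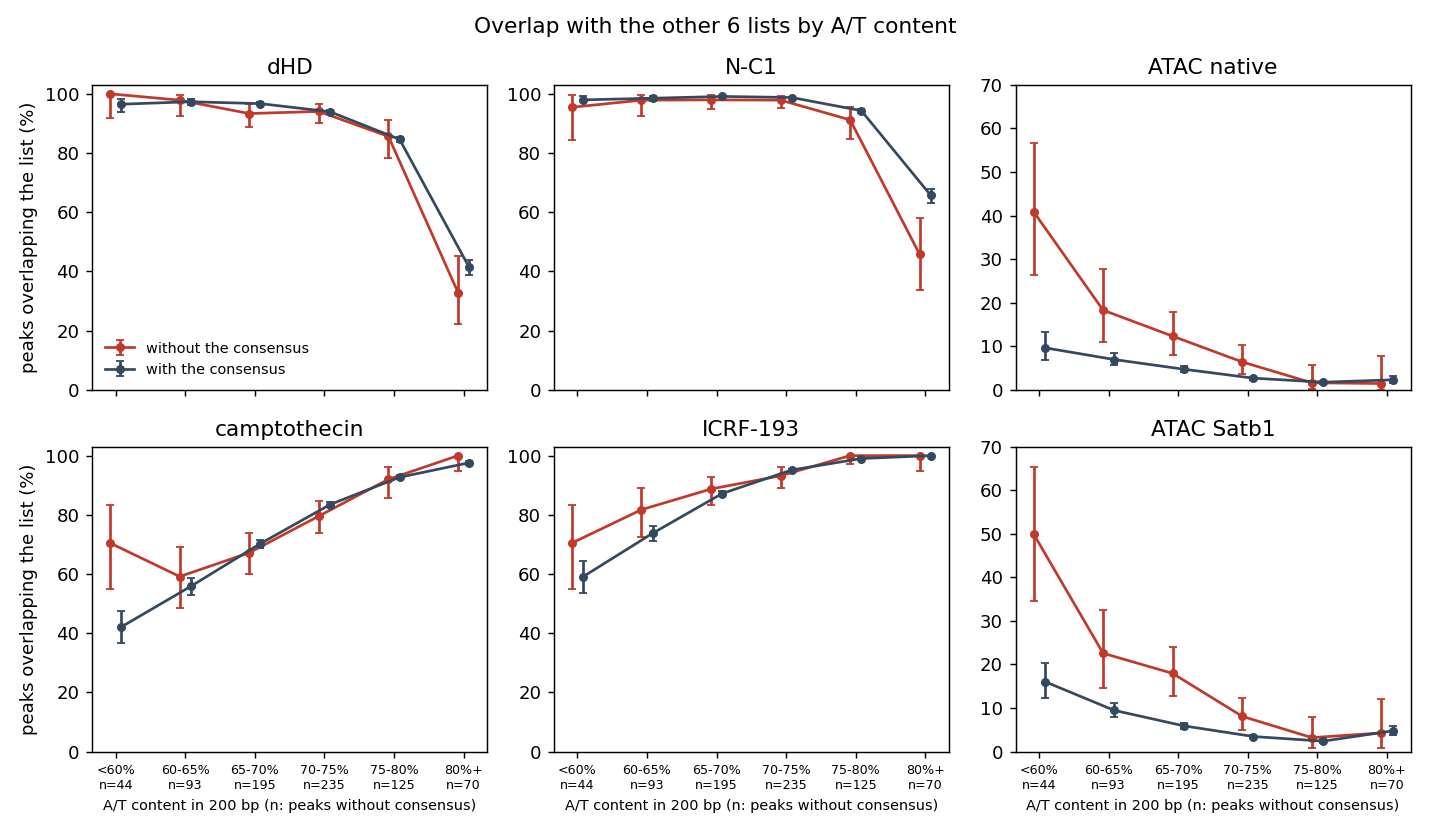
Share of full-length peaks overlapping each of the other 6 lists by at least 1 bp (%) by A/T content in 200 bp, for peaks without the consensus (red) and with it (dark blue), with 95% intervals. The ATAC-seq panels run to 70% and the ChIP-seq panels to 100%. From 80% A/T up, dHD held 32.9% and N-C1 45.7% of the red peaks, and both drug lists held 100%.

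Absence from the construct lists was most frequent at the most A/T-rich peaks. From 80% A/T up, dHD held 23 of 70 peaks without the consensus (32.9%, 22.1 to 45.1) and N-C1 held 32 (45.7%, 33.7 to 58.1). Of peaks with the consensus in this class, dHD held 41.4% and N-C1 65.7%, and the difference for N-C1 was -19.9 percentage points (-31.3 to -8.11). For dHD it was -8.51, with an interval of both signs (-18.7 to 3.38). In every class under 80% A/T the N-C1 interval also took in both signs, as at 75 to 80%, with -3.12 (-9.41 to 0.75). From 70 to 75% A/T, by comparison, dHD held 94.0% and N-C1 97.9% of peaks without the consensus. Neither construct list held 52 of the 762 peaks, beside 4.09% of all full-length peaks, and of the 52, 36 had at least 80% A/T, 16 were tandem repeats and 47 were in both drug lists. A further 42 were in N-C1 and not in dHD, beside 7.31% of all full-length peaks, and 10 were in dHD and not in N-C1, beside 0.713%. The peaks near SCNN1B and SPRY4 and in KCNV2 were all among those in neither. Their fold enrichments were 11.04, 26.8 and 11.9 after camptothecin and 14.4, 33.5 and 22.2 after ICRF-193. A peak in an intron of MAGI3 (chr1:113958412-113959021), a junctional scaffold gene, had 45.3 with full-length Satb1, 14.2 in N-C1 and 57.3 after ICRF-193, and was not in dHD. Its deposited interval held an exact match, 286 bp from the midpoint.

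Presence in the drug lists went with strength. The camptothecin list held 589 peaks without the consensus (77.3%, 74.2 to 80.2), beside 81.7% of all full-length peaks, a difference from peaks with the consensus of -4.51 (-7.65 to -1.63). The ICRF-193 list held 694 (91.1%, 88.8 to 93.0), beside 92.9%, a difference of -1.93 (-4.19 to -0.08). The ICRF-193 interval included 0 without peaks near gaps (-0.988) and without the sequence family (-1.64), and at a fold enrichment of at least 5 the difference was 0.523. Those held by camptothecin had a median full-length fold enrichment of 7.74 and the others 5.66, and for ICRF-193 these values were 7.05 and 4.998. For dHD they were 6.76 and 6.92. All 174 peaks of the strongest quartile were in both drug lists, and of the 5541 peaks with the consensus in that quartile camptothecin held 5540 and ICRF-193 all. Set against peaks with exactly 1 match, the differences turned to 4.83 (1.38 to 8.07) for camptothecin and 2.57 (0.10 to 4.72) for ICRF-193, while that for N-C1 was -2.91 (-5.18 to -0.99).

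**Figure D5:**
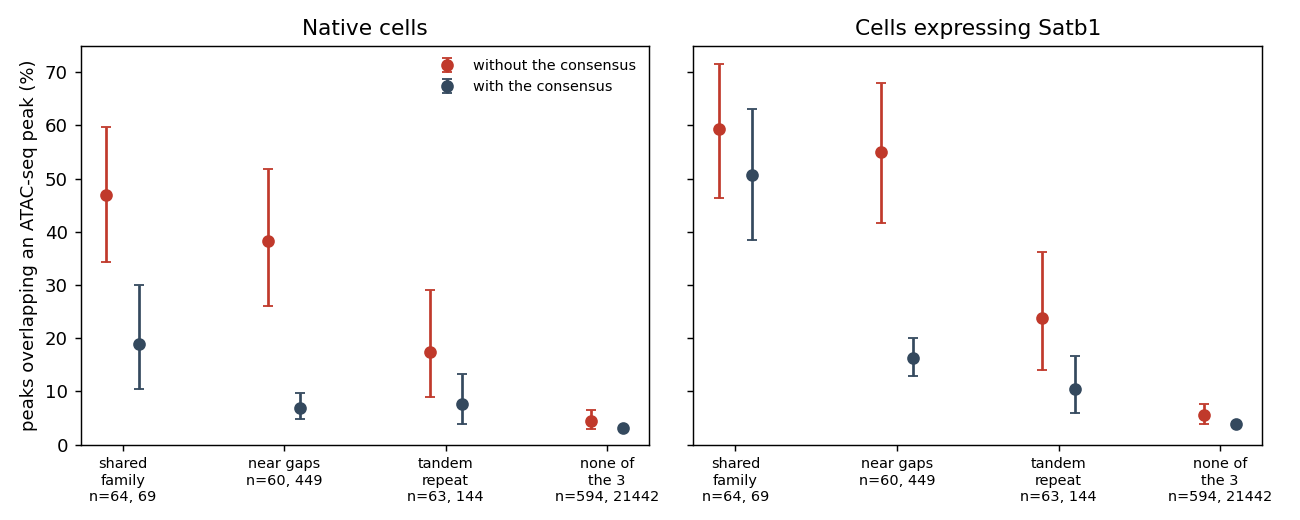
Share of full-length peaks overlapping an ATAC-seq peak (%) in native cells (left) and in cells expressing Satb1 (right), by group, for peaks without the consensus (red) and with it (dark blue), with 95% intervals. The numbers under each group are its peaks without and with the consensus, and a peak may be in more than 1 of the first 3 groups. In native cells the share was 46.9% for the family, 38.3% near gaps, 17.5% in tandem repeats and 4.55% in none of these among the red peaks.

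Peaks without the consensus lay in accessible chromatin more often than peaks with it. In native MCF10A cells, which lack Satb1, 77 (10.1%, 8.06 to 12.5) overlapped an ATAC-seq peak, beside 3.42% of all full-length peaks. The difference from peaks with the consensus, at 3.19%, was 6.92 percentage points (4.96 to 9.27). In cells expressing Satb1, 104 did (13.6%, 11.3 to 16.3), beside 4.64%, a difference of 9.32 (7.04 to 11.95). Accessibility was shared by both lists at 70 peaks (9.19%), was in native cells alone at 7 (0.919%) and in cells expressing Satb1 alone at 34 (4.46%), and 651 (85.4%) were in neither. Among peaks with the consensus these shares were 2.61%, 0.579%, 1.72% and 95.1%. The ATAC-seq peaks involved were weak, with a median fold enrichment of 3.02 in native cells, against 5.45 where peaks with the consensus overlapped.

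Much of this accessibility was in the 3 groups above. Of the 77, 30 belonged to the sequence family, a further 11 lay near gaps outside it, 11 were tandem repeats, some of them also in the family, and 27 were in none of the 3. The family had 46.9% of its peaks without the consensus in native ATAC-seq peaks and 59.4% in those of cells expressing Satb1. Outside all 3 groups the native share was 4.55% (3.02 to 6.54) of 594, against 3.05% of peaks with the consensus, a difference of 1.5 (0.08 to 3.50). With ATAC-seq peaks of a -log10 q of at least 5 the native difference over all 762 was 1.43 (0.27 to 3.05). By A/T content the native share ran from 40.9% under 60% A/T, against 9.65% of peaks with the consensus, to 1.43% from 80% up, against 2.28%.

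The strongest peak without the consensus in both ATAC-seq lists lay near CD300LD (chr17:72569415-72570382), a leukocyte receptor gene, with a fold enrichment of 37.8 for Satb1, 3.15 for native ATAC-seq and 3.02 with Satb1. It had a 26-bp repeat unit. The next lay in an intron of SNPH (chr20:1282144-1283403), a gene for an axonal mitochondrial anchor, with 32.4, 6.10 and 6.54 and flanks of 43.5% A/T. The third lay within the annotated span of CNIH3 (chr1:224739595-224741056), an AMPA receptor auxiliary protein, and belonged to the sequence family, with 30.7, 2.73 and 2.15.

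Most of the peaks lay away from genes. By the position of the summit, 3 (0.394%) were in a protein-coding promoter, beside 0.547% of all full-length peaks, 5 (0.656%) in an exon, beside 1.07%, and 255 (33.5%) in an intron, beside 37.3%. The remaining 499 (65.5%, 62.0 to 68.9) were intergenic, 4.56 percentage points (1.06 to 7.91) above peaks with the consensus. With transcripts of every type annotated the intergenic difference was 0.485, with an interval that included 0. The distance to the nearest protein-coding start had a median of 105190 bp, against 106634 bp at peaks with the consensus.

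The promoter peaks were those of SLC3A1 (chr2:44511925-44512235), a subunit of the cystine transporter, and of the olfactory receptor genes OR2T3 (chr1:248636047-248636326) and OR2T34 (chr1:248738440-248738682). Their fold enrichments were 7.74, 6.50 and 5.47. The SLC3A1 peak was in all 4 other ChIP-seq lists, and both olfactory receptor peaks were in dHD and N-C1 and in neither drug list. Introns or exons of 243 genes held a summit, most often SLC25A48, with 7.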

How the data were processed

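Satb1 ChIP-seq and ATAC-seq of MCF10A cells were analysed as 7 peak lists, 1 per condition, grouped by the sample labels. The authors trimmed reads with cutadapt, aligned them to hg19 with Bowtie2, and called ChIP-seq peaks against input and ATAC-seq broad peaks with MACS2. Versions of the aligner and peak caller are not given in the sources used here, nor is the pooling of duplicates or the handling of reads with several alignments. The deposited fold enrichment is a ratio to the local background. The deposited −log10 values of p and q came from the peak caller, and so did the deposited score, a rescaled q-value.

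Sequence came from hg19. The exact and single-mismatch matches were counted in 400 bp at the midpoint, A/T content in 200 bp, and flanks at 1000 to 2000 bp. Lists overlapped with at least 1 bp. Tandem repeats had at least 20% repeated 12-mers, with units searched from 5 to 150 bp. A promoter ran from 1000 bp upstream to 100 bp downstream of a protein-coding start in GENCODE, lifted to GRCh37. The depth of each single list is not stated. Shares have exact intervals and differences of shares Newcombe intervals, at 95%. There was no test between conditions.

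The peaks and gene lists were chosen with earlier results of these data known. Peaks named in the text were the 5 strongest, the 3 widest, the 3 highest and the 3 lowest in A/T content, all promoter peaks, the 3 strongest in both ATAC-seq lists, those absent from all other ChIP-seq lists, those with the most or no single-mismatch matches, and those nearest the window's edge. The sequence family, the repeat and gap groups, the 7-mers and the clusters at SLC25A48 and DEFB115 were chosen after the data were seen. Alternatives covered the window, the consensus, peak thresholds, overlap rules and gene models. The counting functions were tested on simulated data. The 19 unreadable peaks of chromosome Y, and the other samples, were not analysed here. Some items are not reported here. Tools were Python 3.11.15, numpy 2.4.6, pandas 2.3.3, scipy 1.17.1, pysam 0.24.0, matplotlib 3.10.9, samtools 1.23.1 and bedtools 2.31.1.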

Additional observations from a re-analysis of the deposited data

How the results depend on the processing

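No paired analysis was possible because each condition had 1 list and no replicate number. Of 76 alternatives over 15 results, 60 left the call as it was or stayed within 1.5 times the count. Among these the promoter and exon differences, whose intervals included 0 throughout, changed sign under other definitions of transcripts or promoters. The number of peaks without the consensus was 2318 with a window of 150 bp, 1578 with 200 bp and 410 with 1000 bp. It was 7515 when only CTAATAA and CTAATAG on either strand counted as the consensus, and 46 when TAATA or TATTA sufficed. The difference in log2 fold enrichment was -0.03 with a -log10 q of at least 5 (-0.0321) and without peaks near gaps (-0.0266). The difference in log2 width was -0.04 (-0.0376) when the interval was searched too, 0.0212 without tandem repeats and 0.0276 without the sequence family. The dHD difference was -12.3 percentage points with 50% reciprocal overlap. The ICRF-193 difference was 0.523 with a fold enrichment of at least 5, -0.988 without peaks near gaps and -1.64 without the family. With transcripts of every type the intron difference was -0.779 and the intergenic difference 0.485. The alternatives without gap peaks, tandem repeats or the family were chosen after seeing the data, as were those on unreadable peaks: counting all 19 gave 781, and reading them from chromosome X gave 763. The causes of these changes were not tested. The depth of each list is not stated, so absence from a list could not be separated from a lack of reads.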

Other observations

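Other short sequences were searched in the 400 bp on both strands, and each match is a description of letters. TAATTA, which overlaps several single-mismatch matches, was in 400 of the 762 peaks without the consensus (52.5%), in 56.8% of peaks with it and in 20.2% of the 1523 windows lying 2000 bp away. ATTATTATT was in 46 (6.04%), against 15.1% of peaks with the consensus, a difference of -9.02 percentage points (-10.6 to -7.04), and in 3.28% of the windows. Where this run goes on with A and then a purine it holds an exact match. The rule itself leaves such peaks out, so part of that difference was set by the selection. A run of 8 A was in 94 (12.3%), against 15.4% and 20.7%. TATATATA was in 55 (7.22%), against 5.94% and 4.92%. TGANTCA, the site of Fos and Jun proteins, was in 88 (11.5%), against 12.4% and 12.3%. GGAATG, the TEAD site, was in 124 (16.3%), against 14.5% and 19.8%, and GGAATGGAA, a satellite repeat that contains it, was in 5 (0.656%), against 0.380% and 1.31%. GGGCGG, the GC box, was in 11 (1.44%), against 0.905% and 2.89%. TTAGGG, the telomeric repeat, was in 116 (15.2%), against 14.2% and 14.1%. CCGGAAG, the core of ETS sites, was in 1, against 0.262% and 0.591%, and the CTCF core and the CENP-B box in 0, which says only that these letters were not in the windows. CG was in 594 (78.0%), against 74.3% and 88.1%.

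By chromosome, peaks without the consensus ranged from 1.61% of full-length peaks on chromosome 18 to 5.57% on chromosome 20 among the autosomes. Chromosome 20 had 8 of its 16, and chromosome 21 had 12 of its 19, within 1 Mb of a large gap. On chromosome X the share was 3.05%.

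Gene lists were read within 5000 bp of the gene. Large synaptic adhesion and fragile-site genes held 9 peaks without the consensus (1.18%, 0.541 to 2.23) and 2.03% of all full-length peaks. They were in or near DLG2 and ROBO1, with 2 each, and CTNNA3, LSAMP, MAGI2, PTPRD and ROBO2. Olfactory receptor genes held 7 (0.919%, 0.370 to 1.88) and 0.332% of all, 5 of them at OR2T genes and the others at OR2S2 and OR4N2. Zinc finger genes held 3 (ZNF365, ZNF45 and ZNF710), 0.394% against 0.416% of all. Cadherins held 1 (CDH8), 0.131% against 0.293%, and ERBB receptors and neuregulins 1 (ERBB4), 0.131% against 0.236%. Mammary basal and luminal, epithelial to mesenchymal transition, housekeeping, immediate early and ribosomal protein genes held 0 each, beside 14, 12, 1, 1 and 1 of all full-length peaks. The replication-dependent histone list matched only 2 names of the annotation and was void.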
